A study of Schizosaccharomyces pombe with 12 samples.

Results

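The genes examined here encode subunits of the fission yeast proteasome. A probe set was taken as a member when the platform's gene symbol was *rpn*, *rpt*, *pre*, *pup* or *mts* followed by a number, or was *scl1*, *pts1*, *pam1* or *pad1*. This rule, which uses no expression value, found 27 probe sets for 27 genes among the 4880 *S. pombe* probe sets of the array. Expression was profiled in cultures of a wild-type strain and of a *set3Δ* strain, each given latrunculin A (LatA) or DMSO in rich YES medium. Both strains carried the markers *ura4-D18*, *leu1-32* and *ade6-216*, and in the mutant *set3* was replaced with KanMX. Set3p is a SET-domain protein of a putative histone deacetylase complex. LatA binds actin monomers and so lowers the supply of actin for filaments, and DMSO is its solvent. Cells in mid-log phase were treated for 3 h at 30 °C, with LatA at 0.5 mM by the sample labels and at 0.5 µM by the methods. The study lists a wild-type and a *set3Δ* strain of opposite mating type with these markers but does not say which strains were hybridized, so a strain difference and a mating-type difference cannot be told apart here. Each of the 4 groups had 3 arrays, called biological replicates in the labels.

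The proteasome is the large protease that degrades proteins marked with ubiquitin. Its core particle is a barrel of stacked rings: the outer rings, made of α subunits, gate the entrance, and the inner rings, made of β subunits, hold the active sites. A regulatory particle caps the barrel. Its base unfolds substrates with a ring of 6 ATPases (Rpt1 to Rpt6) and holds scaffold subunits and ubiquitin receptors, and its lid carries the enzyme that cuts ubiquitin chains off the substrate. In budding yeast most of these genes are switched on together by one transcription factor, Rpn4. The 27 genes divided into 4 α subunits, 5 β subunits, 6 ATPases of the base, 5 non-ATPase subunits of the base and 7 lid subunits.

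The values are log2 intensities in which every probe set has a median of 0 over the 12 arrays, so a value gives the distance of a transcript from its own median, and levels of different subunits cannot be ranked. Each array measured RNA of a whole culture, so a change in the share of cells in some state and a change of RNA per cell cannot be told apart. The *set3* probe set matched the strain labels, at 1.97 to 2.31 on the wild-type arrays and -2.59 to -1.97 on the *set3Δ* arrays. Between replicate arrays the SD of a proteasome probe set had a median from 0.0461 in *set3Δ* with LatA to 0.0992 in wild type with DMSO, and over all probe sets these medians ran from 0.0708 to 0.114. A pair of DMSO arrays stood apart from the others of their group: wild-type replicate 1 lay above replicates 2 and 3, and *set3Δ* replicate 2 lay below replicates 1 and 3. For the comparisons of groups, counts at an adjusted p and medians are given with and without these arrays. The order of the group means of single genes and the CESR score, a stress score explained below, are given with all arrays.

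The mean level of the 27 transcripts is given first. Averaged over the 27 genes, the log2 value was -0.112, -0.273 and -0.279 on wild-type arrays 1 to 3 with DMSO, with a mean of -0.221 ± 0.0947 (SD, n = 3). With LatA the wild-type arrays lay at 0.0726, 0.0586 and -0.0175 (mean 0.0379 ± 0.0485, n = 3). The *set3Δ* arrays lay at 0.00575, -0.156 and -0.0192 with DMSO (mean -0.0564 ± 0.0869, n = 3). With LatA they lay at 0.183, 0.117 and 0.105 (mean 0.135 ± 0.0420, n = 3). In each strain the LatA arrays were all above the DMSO arrays, and with LatA all *set3Δ* arrays were above all wild-type arrays, whereas the DMSO arrays of the strains overlapped. These means differed by 0.259 between LatA and DMSO in wild type, by 0.191 in *set3Δ*, by 0.165 between the strains with DMSO and by 0.0968 between them with LatA. Without replicate 1 the wild-type DMSO mean was -0.276, and without replicate 2 the *set3Δ* DMSO mean was -0.00673. On every *set3Δ* LatA array all 27 genes were above their medians, and on the wild-type DMSO arrays 0, 0 and 1 of them were. These counts are tied to each other, as each median is over all 12 arrays, and no share of all probe sets is given for them. The median of all 4880 probe sets stayed between -0.0302 and 0.0354 on the 12 arrays.

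**Figure D1:**
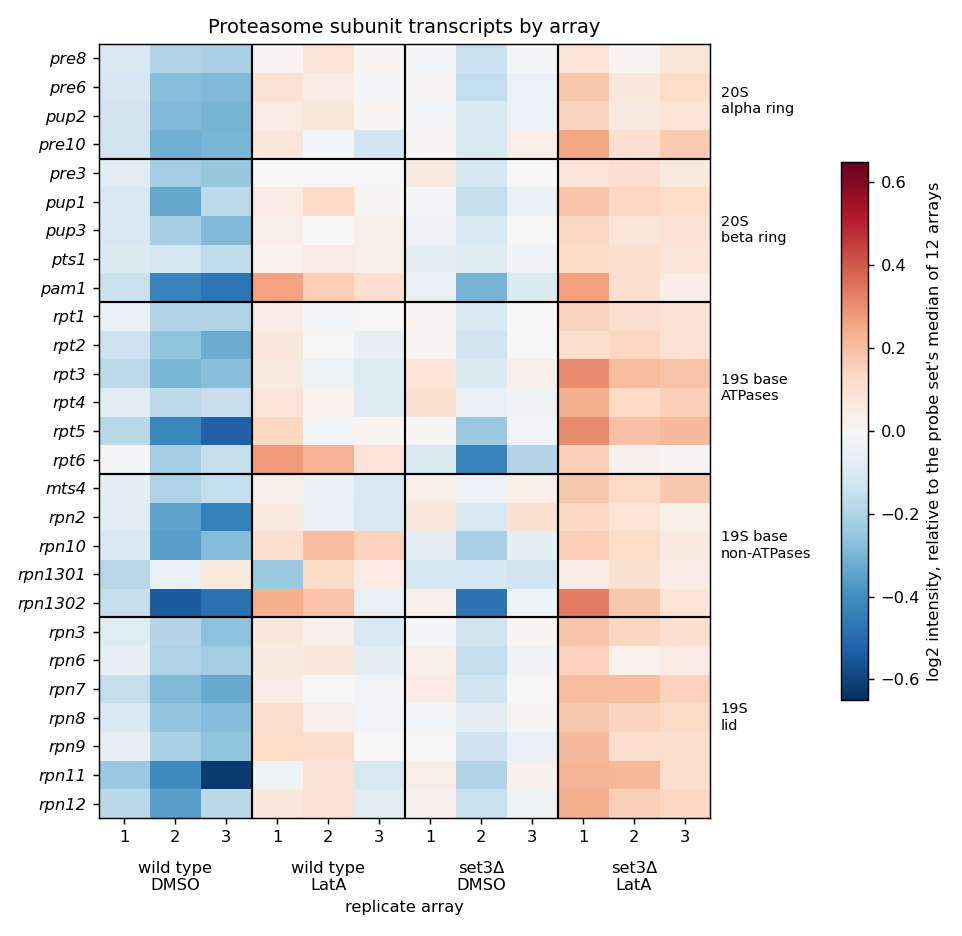
Colour shows the log2 intensity of each of the 27 proteasome transcripts (rows, grouped by the part of the proteasome they encode, where 20S is the core and 19S the regulatory particle) on each of the 12 arrays (columns, 3 per group), relative to the probe set's median. The wild-type DMSO arrays are mostly blue, the *set3Δ* LatA arrays are red or pale red throughout, and wild-type DMSO replicate 1 and *set3Δ* DMSO replicate 2 differ from the others of their group.

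The group means of single genes followed the same order. In 18 of 27 genes the order from low to high was DMSO-treated wild type, DMSO-treated *set3Δ*, LatA-treated wild type and LatA-treated *set3Δ*, an order seen in 13.9% of all probe sets. Wild type with DMSO was the lowest group in 25 genes, all but *rpt6* and *rpn1301* (31.3% of all probe sets). The *set3Δ* LatA group was the highest in 24 genes, all but *pam1*, *rpn10* and *rpt6* (27.3% of all probe sets). This ordering was noticed after the values had been seen and is given as a description. It was counted with the DMSO arrays that stood apart kept in, and was not recounted without them.

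A stress score was computed for each array as well. The CESR score, the mean of the 136 genes that rise in the core environmental stress response minus the mean of the 104 that fall, was -0.742, -1.37 and -1.52 on the wild-type DMSO arrays and 0.241, 0.258 and 0.450 on the wild-type LatA arrays. In *set3Δ* it was 0.0119, -1.06 and -0.0438 with DMSO and 0.615, 0.698 and 0.455 with LatA. As for the proteasome level, the LatA arrays of each strain were all above its DMSO arrays, and the DMSO arrays that stood apart did so in the same direction. Within the LatA groups the orders differed: wild-type replicate 3 had the lowest proteasome level and the highest score of its group, and in *set3Δ* replicate 1 had the highest level and replicate 2 the highest score. None of the 27 genes is in either CESR list, and none is among the 561 genes of the study's list for the cellular response to stress. The part of the stress state in the proteasome results was not tested.

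**Figure D2:**
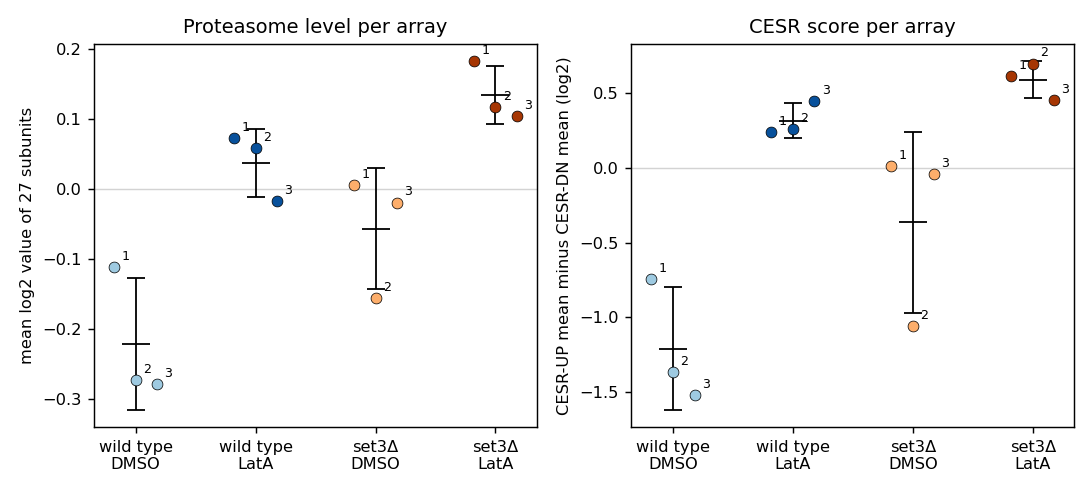
The left panel plots the mean log2 value of the 27 proteasome transcripts on each array and the right panel the CESR score (log2), by group; points are arrays labelled by replicate number, and bars are the group mean ± SD (n = 3). The DMSO arrays that lie apart on the left, wild-type replicate 1 at -0.112 and *set3Δ* replicate 2 at -0.156, also lie apart on the right.

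Whether LatA altered the proteasome genes was asked first in wild type. All 27 transcripts had a higher mean with LatA than with DMSO, against 44.9% of all probe sets, and 18 of them rose at an adjusted p below 0.05, against 17.5% of all probe sets (25.5% fell). The changes were small and alike. The median log2 difference was 0.25 (1.19-fold), from 0.03 for *rpn1301* to 0.52 for *pam1*, with an SD between genes of 0.115, where the 4880 probe sets had a median of -0.03 and an SD of 0.476. Of all probe sets, 21.3% had a difference at or above the proteasome median. No gene also reached the study's limit of a 1.5-fold change, which 7.21% of all probe sets passed upwards and 7.3% downwards. Limma's unadjusted p was below 0.05 for 22 of the 27 (22.5% of all probe sets in that direction). In 21 genes the arrays of the 2 groups did not overlap, all with LatA higher (24.8% of all probe sets), and no gene fell. The upper end of the 95% interval stayed under 0.58, the log2 of 1.5, for 22 genes and passed it for 5.

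The largest response was that of *pam1*, which encodes the structural subunit β6 of the inner ring. It was measured at -0.14, -0.43 and -0.47 with DMSO and at 0.26, 0.16 and 0.11 with LatA, so that even the highest DMSO array lay below the lowest LatA array. The difference was 0.52 ± 0.10 (SE) on the log2 scale, or 1.44-fold, with limma's adjusted p = 0.00982. The ubiquitin receptor gene *rpn10* went from -0.10, -0.35 and -0.28 to 0.11, 0.20 and 0.15, a log2 difference of 0.40 ± 0.08 (adjusted p = 0.0104). These were the only members that passed with each of the 6 arrays left out in turn, with adjusted p up to 0.0388 for *pam1* and 0.0446 for *rpn10*.

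One of the Rpn13 receptor genes, *rpn1302*, rose as far as *pam1* but with more spread. Its DMSO arrays lay at -0.15, -0.54 and -0.49 and its LatA arrays at 0.23, 0.18 and -0.05, and the log2 difference was 0.52 ± 0.13 (adjusted p = 0.0205). Next came the ATPase gene *rpt5*, at -0.18, -0.43 and -0.52 with DMSO and 0.13, -0.01 and 0.01 with LatA, a log2 difference of 0.42 ± 0.10 (adjusted p = 0.0181). The groups did not overlap in either gene. The gene for the deubiquitinating enzyme of the lid, *rpn11*, lay at -0.24, -0.41 and -0.62 with DMSO and -0.03, 0.09 and -0.10 with LatA, again without overlap, and its log2 difference was 0.41 ± 0.11 (adjusted p = 0.0268). The ATPase gene *rpt6* lay at -0.01, -0.23 and -0.16 with DMSO and 0.27, 0.23 and 0.08 with LatA, a log2 difference of 0.33 ± 0.08 (adjusted p = 0.0214).

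The genes for the catalytic β subunits changed less than the genes named above, which had the largest differences of the 27. Of these 3 catalytic genes, *pup1* lay above the median of the 27 (0.25) and the others below it. For *pts1* (β5, the chymotrypsin-like site) the arrays lay at -0.09, -0.12 and -0.16 with DMSO and 0.02, 0.06 and 0.04 with LatA, and the log2 difference was 0.16 ± 0.05 (adjusted p = 0.0384). For *pup1* (β2, the trypsin-like site) they lay at -0.10, -0.33 and -0.17 and at 0.05, 0.13 and 0.01, and the difference was 0.26 ± 0.08 (adjusted p = 0.0348). For *pre3* (β1, the caspase-like site) they lay at -0.07, -0.23 and -0.25 with DMSO and at -0.00065, 0.0048 and -0.0011 with LatA, and the log2 difference of 0.18 ± 0.06 missed the threshold (adjusted p = 0.0563). No array of one group overlapped the other group in these 3 genes.

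Every part of the proteasome was represented among the genes that rose. The median log2 difference was 0.25 for the α ring, where 3 of 4 genes passed, and 0.23 for the β ring, where 4 of 5 passed. It was 0.24 for the ATPases of the base (4 of 6), 0.25 for the other base subunits (2 of 5) and 0.25 for the lid (5 of 7). The 9 genes that did not pass were *pre10*, *pre3*, *rpt1*, *rpt4*, *mts4*, *rpn2*, *rpn1301*, *rpn3* and *rpn6*, with log2 differences from 0.03 to 0.25. Their products include the large scaffold subunits of the base, Rpn1 (*mts4*, 0.11 ± 0.06) and Rpn2 (0.25 ± 0.11).

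The number of genes that passed in wild type depended on single arrays. It was 24 without DMSO replicate 1 (24.8% of all probe sets higher), 2 without DMSO replicate 2 (9.61%), 3 without DMSO replicate 3 (12.1%), 2 without LatA replicate 1 (11.1%), 2 without LatA replicate 2 (10%) and 9 without LatA replicate 3 (10.4%). *pam1* and *rpn1302* also exceeded 1.5-fold without DMSO replicate 1, and *rpn1302* without LatA replicate 3. The percentages above are for any fold change, and no share of all probe sets is given at 1.5-fold in these fits. The size of the response depended less on them, with a median log2 difference between 0.21 and 0.30 when any one array was left out, and 26 genes stayed above 0 each time. The exception was *rpn1301*, whose difference turned to -0.03 without DMSO replicate 1, -0.04 without LatA replicate 2 and -0.006 without LatA replicate 3.

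**Figure D3:**
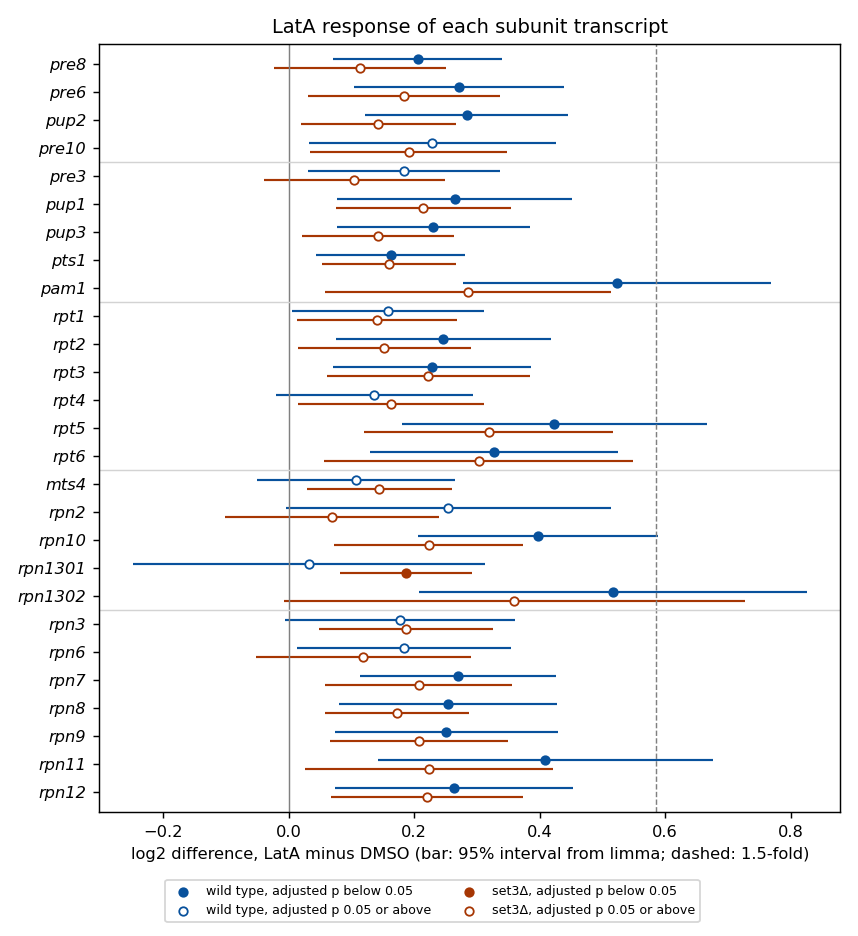
Points give the log2 difference between LatA and DMSO for each of the 27 genes in wild type (blue) and *set3Δ* (red), bars the 95% interval from limma, and filled points an adjusted p below 0.05; the dashed line marks 1.5-fold. All points lie to the right of 0, 18 wild-type points and 1 *set3Δ* point are filled, and no point reaches the dashed line.

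The same question was asked in *set3Δ*, where 1 of the 27 genes passed. All 27 genes had a difference above 0 (46.3% of all probe sets), with a median of 0.19 (1.14-fold) and a range from 0.07 for *rpn2* to 0.36 for *rpn1302*. Of all probe sets, whose median was -0.02, 20.7% had a difference at or above the proteasome median. Only *rpn1301* passed an adjusted p below 0.05, against 6.43% of all probe sets (6% were lower). No gene passed with the 1.5-fold limit added, against 1.97% upwards and 1.64% downwards. Limma's unadjusted p was below 0.05 for 22 genes (17.5% of all probe sets in that direction), and in 25 genes the groups did not overlap (21.5% of all probe sets).

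The gene that passed, *rpn1301*, had the smallest difference in wild type. It encodes the other Rpn13 receptor. In *set3Δ* it lay at -0.12, -0.12 and -0.13 with DMSO and 0.05, 0.10 and 0.05 with LatA, so its groups were tight and separate, and the log2 difference was 0.19 ± 0.04 (adjusted p = 0.0451). The larger difference of *rpn1302* came with wide spread, at 0.03, -0.48 and -0.03 with DMSO and 0.33, 0.18 and 0.09 with LatA, a log2 difference of 0.36 ± 0.15 (adjusted p = 0.139). For *rpt5* the arrays lay at 0.01, -0.24 and -0.02 and at 0.31, 0.19 and 0.21, and the log2 difference was 0.32 ± 0.08 (adjusted p = 0.0548). For *rpt6* it was 0.30 ± 0.10, and for *pam1* 0.29 ± 0.09, with adjusted p of 0.0898 and 0.0864.

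The catalytic genes lay close together in *set3Δ* as well. The log2 difference was 0.16 ± 0.04 for *pts1*, 0.21 ± 0.06 for *pup1* and 0.10 ± 0.06 for *pre3*, with adjusted p of 0.0629, 0.0589 and 0.237. The medians by part of the proteasome were 0.16 for the α ring, 0.16 for the β ring, 0.19 for the ATPases, 0.19 for the other base subunits and 0.21 for the lid. The groups overlapped in *rpn2* and *rpn6* alone. Without DMSO replicate 2, the low *set3Δ* array, the median difference was 0.147, and leaving out any other array gave 0.159 to 0.205. All 27 genes remained above 0 each time. The single pass was lost with each of the 6 arrays left out, where 0% to 5.39% of all probe sets were higher, against 6.43%.

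Between the strains no proteasome gene passed without LatA. With DMSO 25 of the 27 genes had a higher mean in *set3Δ* than in wild type (47.3% of all probe sets), with a median log2 difference of 0.16 (1.12-fold). Of all probe sets, 20.1% had a difference at or above that median. Limma called none of the 27 at an adjusted p below 0.05, with or without the fold limit, where 0% of all probe sets passed upwards and 0.164% downwards without it, and 0.123% downwards with it. Unadjusted, 10 genes were below 0.05 (8.14% of all probe sets), and in 12 the groups did not overlap, all with *set3Δ* higher (11.2% of all probe sets). The lowest adjusted p was 0.162. This comparison shares its wild-type arrays with the LatA response of wild type, and the low values of those arrays enter both.

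The largest difference with DMSO was in *rpn11*. Its *set3Δ* arrays lay at 0.04, -0.20 and 0.03, all above the wild-type arrays given above, and the log2 difference was 0.38 ± 0.12 (adjusted p = 0.179). For *rpn2* the wild-type arrays lay at -0.07, -0.34 and -0.44 and the *set3Δ* arrays at 0.07, -0.11 and 0.10, with overlap, and the difference was 0.31 ± 0.11 (adjusted p = 0.204). The exceptions in direction were *rpt6*, at -0.09, -0.44 and -0.19 in *set3Δ* (log2 difference -0.11 ± 0.11, adjusted p = 0.566), and *rpn1301* (log2 difference -0.07 ± 0.07, adjusted p = 0.590). For the catalytic genes the log2 differences were 0.07 for *pts1*, 0.13 for *pup1* and 0.16 for *pre3*. The median over the 27 was 0.214 without wild-type replicate 1 and 0.209 without *set3Δ* replicate 2, and 0.135 to 0.154 without any other array. No gene passed in any of these fits, where 0% to 0.041% of all probe sets were higher. The 95% intervals reached above 1.5-fold in 3 genes, so a difference of that size was not resolved for them.

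With LatA the strain difference was smaller and better resolved. In 24 genes the mean was higher in *set3Δ* (55.3% of all probe sets), with a median log2 difference of 0.09 (1.06-fold), a value that 33.9% of all probe sets reached. An adjusted p below 0.05 was reached by 3 genes, against 9.8% of all probe sets higher and 8.42% lower, so the share of proteasome genes that passed was near the background. No gene passed the 1.5-fold limit (1% of all probe sets upwards, 2.15% downwards), and every 95% interval ended below 1.5-fold. Unadjusted, 8 genes were below 0.05 (20.2% of all probe sets), and in 15 genes all *set3Δ* arrays were above all wild-type arrays (23.3% of all probe sets).

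The genes that passed with LatA were *rpt3*, *mts4* and *rpn7*, which encode a base ATPase, the scaffold subunit Rpn1 and a lid subunit. The ATPase gene *rpt3* lay at 0.06, -0.03 and -0.08 in wild type and 0.31, 0.20 and 0.19 in *set3Δ*, a log2 difference of 0.25 ± 0.06 (adjusted p = 0.0350). For *mts4* the values were 0.04, -0.05 and -0.10 against 0.18, 0.13 and 0.17, a difference of 0.19 ± 0.05 (adjusted p = 0.0464). For *rpn7* they were 0.06, -0.0011 and -0.02 against 0.20, 0.19 and 0.15, a difference of 0.17 ± 0.04 (adjusted p = 0.0426). None of them overlapped between strains. The α7 gene *pre10*, second in size at 0.20 ± 0.07, did not pass (adjusted p = 0.0920), and *rpn11* had 0.19 ± 0.07 (adjusted p = 0.0863). The count of 3 went to 4, with *rpt5* added, when wild-type LatA replicate 1 was left out (9.14% of all probe sets higher), and to 0 without any of the other 5 arrays (1.97% to 5.92%).

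The genes with a lower mean in *set3Δ* under LatA were *rpt6*, *rpn10* and *pam1*. For *rpt6* the *set3Δ* arrays lay at 0.15, 0.03 and 0.01, overlapping the wild-type arrays, and the log2 difference was -0.13 ± 0.07 (adjusted p = 0.225). For *rpn10* they lay at 0.16, 0.12 and 0.06 and the difference was -0.04 ± 0.05 (adjusted p = 0.610). The *pam1* arrays lay at 0.27, 0.10 and 0.05, with a difference of -0.04 ± 0.07 (adjusted p = 0.768). Among the catalytic genes the differences were 0.06 for *pts1*, 0.08 for *pup1* and 0.09 for *pre3*, none of which passed.

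The difference between the LatA responses of the strains was then tested directly over all 12 arrays. No proteasome gene passed, at an adjusted p or an unadjusted p below 0.05, where 0.0205% of all probe sets passed upwards and 0.041% downwards after adjustment and 13.4% upwards and 6.82% downwards before it. The log2 response of *set3Δ* minus that of wild type was below 0 in 23 genes and above 0 in 4, and it was below 0 in 44.1% of all probe sets. The number above 0 was between 1 and 9 when any one array was left out. The median difference of log2 responses was -0.06, against 0.03 for all probe sets. It was most negative for *pam1* at -0.24 ± 0.14 (95% interval -0.56 to 0.08, adjusted p = 0.356) and for *rpn11* at -0.19 ± 0.14 (adjusted p = 0.473). It was most positive for *rpn1301* at 0.15 ± 0.13 (adjusted p = 0.505) and *mts4* at 0.04 ± 0.07 (adjusted p = 0.796). Every interval ended below 1.5-fold on the upper side, and on the lower side only that of *rpn1302* reached further, to -0.63. The median was -0.118 without wild-type DMSO replicate 1, -0.118 without *set3Δ* DMSO replicate 2 and -0.024 without *set3Δ* DMSO replicate 1, with no gene passing in any of them. Without wild-type DMSO replicate 1, 4.8% of all probe sets passed upwards and 5.02% downwards. Without *set3Δ* DMSO replicate 1 or replicate 2, 0% passed upwards and 0.0205% downwards.

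Rpn13, a ubiquitin receptor of the base, was the only subunit represented by 2 genes among the 27. *rpn1302* varied widely between groups, as given above. *rpn1301* lay at -0.18, -0.05 and 0.07 in wild type with DMSO and at -0.24, 0.12 and 0.05 with LatA, so that its groups overlapped. The LatA response of *rpn1302* exceeded that of *rpn1301* by 0.48 in wild type (two-sided exact permutation test on the difference between the genes per array, p = 0.2) and by 0.17 in *set3Δ* (p = 0.6). The strain difference of *rpn1302* exceeded that of *rpn1301* by 0.30 with DMSO (exact p = 0.2) and by -0.01 with LatA (exact p = 0.9). After Benjamini-Hochberg adjustment over these 4 comparisons the exact p values were 0.4, 0.8, 0.4 and 0.9. With 3 arrays a group there are 20 splits and the smallest possible p is 0.1, so this test could not have passed.

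**Figure D4:**
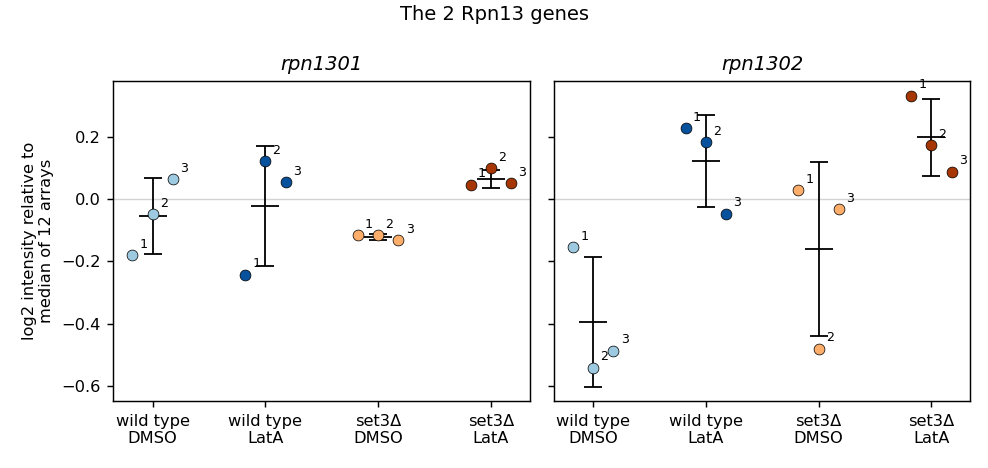
Log2 intensity of *rpn1301* and *rpn1302* relative to the median of 12 arrays, by group; points are arrays labelled by replicate number, and bars are the group mean ± SD (n = 3). *rpn1302* runs from -0.54 to 0.33, while *rpn1301* stays between -0.24 and 0.12 and separates its groups in *set3Δ* alone.

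Some subunits fell outside the symbol rule because the platform gives no gene symbol for them. A search of the study's gene descriptions, which were read in part, for the word proteasome gave 7 further probe sets. Other subunits without a symbol may have been missed. Of these, 4 encode core subunits, *scl1* (α1), *pre5* (α6), *pre1* (β4) and *pre4* (β7), and all 4 rose with LatA in wild type, by 0.20 to 0.37 on the log2 scale (adjusted p from 0.00811 to 0.0317). The largest of these, *pre4*, lay at -0.25, -0.41 and -0.34 with DMSO and 0.02, 0.10 and -0.02 with LatA. In *set3Δ* their differences were 0.15 to 0.23, and between the strains 0.16 to 0.25 with DMSO and 0.10 to 0.12 with LatA, with none passing. The gene for the core assembly factor Ump1, *ump1*, rose by 0.29 ± 0.07 in wild type (adjusted p = 0.0158). The remaining genes were *nob1*, whose product is best known for the maturation of ribosomes, which fell by 1.05 ± 0.17 in wild type (adjusted p = 0.00671), and *leo1*, a transcription elongation gene (-0.19 ± 0.08, adjusted p = 0.105).

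Genes that act around the proteasome were counted in the same way. Of 18 probe sets for ubiquitin, shuttle and assembly factors, 5 rose and 4 fell with LatA in wild type at an adjusted p below 0.05, where 17.5% of all probe sets rose and 25.5% fell, and their median log2 difference was 0.04. Those that rose included *npl4* and *ufd1*, which encode the cofactors that let Cdc48 pull out ubiquitylated proteins. *npl4* went from -0.38, -0.67 and -0.67 to 0.10, 0.10 and 0.03, a log2 difference of 0.65 ± 0.09 (adjusted p = 0.00529), and was the one gene of the list called higher with the 1.5-fold limit. The difference of *ufd1* was 0.46 ± 0.05 (adjusted p = 0.0048). The polyubiquitin gene *ubi4* (0.30 ± 0.06, adjusted p = 0.0108), *ubp6*, for a deubiquitinating enzyme bound to the proteasome (0.30 ± 0.09, adjusted p = 0.0432), and *ump1* completed them. The probe set of *ubi4* is of a type that can match several genes. The shuttle factor gene *rhp23*, also a DNA repair gene, fell by 0.56 ± 0.08 (adjusted p = 0.00538). The 3 others that fell were *uep1* and the genes *pus1* and *swi10*, which entered by a shared name and encode a tRNA-modifying enzyme and an endonuclease subunit. In *set3Δ* none of the 18 passed with LatA. At an unadjusted p below 0.05 by limma 3 were higher and 3 lower, as were 855 and 950 of the 4880 probe sets.

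Other large complexes and chaperones were listed for comparison. The 8 genes of the CCT chaperonin, which folds actin and tubulin, were all lower with LatA in wild type (2687 of the 4880 probe sets). Their median log2 difference was -0.23, and 6 of 8 passed (25.5% of all probe sets fell). In *set3Δ* 7 of 8 were lower (2621 of the 4880 probe sets), with a median of -0.08. None passed, where 6% of all probe sets passed downwards. In that strain 2 were lower at an unadjusted p below 0.05 by limma, as were 950 of the 4880 probe sets. Of 121 probe sets for cytosolic ribosomal proteins, 106 were lower with LatA in wild type and 15 fell, a smaller share than the 25.5% of all probe sets that fell, and their median was -0.06. The heat-shock list of 12 genes, chaperones and the regulator gene *hsf1*, had a median of -0.01. Of these, 2 rose (*hsf1* and *hsp9*) and 2 fell, against 17.5% and 25.5% of all probe sets. The difference between these lists and the proteasome genes was not tested.

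**Figure D5:**
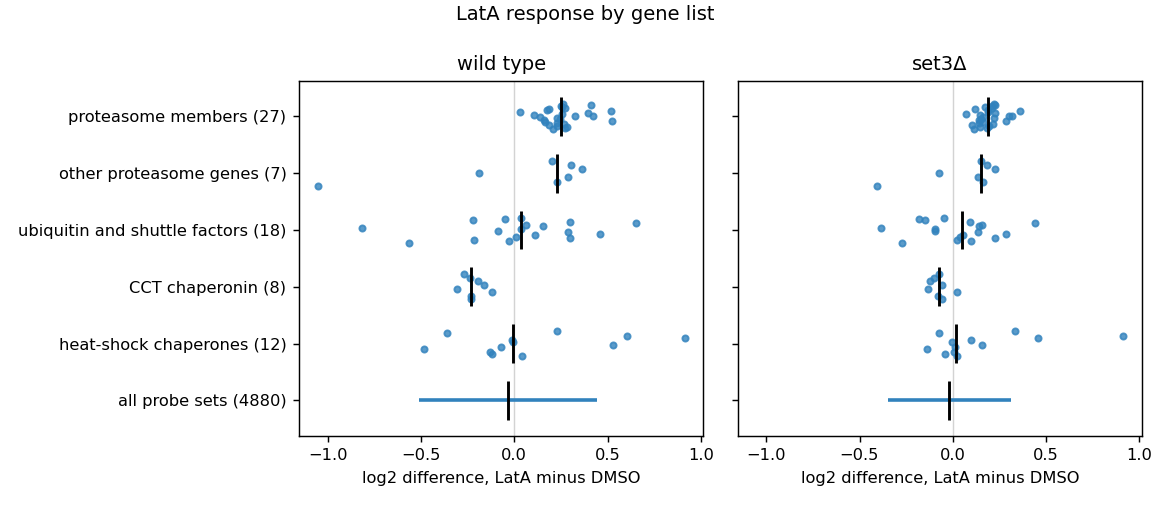
Log2 difference between LatA and DMSO in wild type (left) and *set3Δ* (right) for each gene list, with the number of probe sets in brackets; dots are genes, black lines medians, and the bar for all 4880 probe sets is the median ± SD. The 27 proteasome genes lie between 0.03 and 0.52 in wild type and between 0.07 and 0.36 in *set3Δ*, and the 8 CCT genes lie below 0 in wild type.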

How the data were processed

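RNA of 12 cultures, 3 per group, was hybridized to Affymetrix Yeast Genome arrays. The authors corrected and normalized the arrays with RMA in GeneSpring GX, and the deposited values are log2 intensities. Each of the 4880 *S. pombe* probe sets had a median within 7.02e-07 of 0, so the values are centred per probe set, and neither signal over background nor a filter on dim probe sets could be examined. The number of arrays limits the precision. Probe sets were named from the platform annotation (2865 with 1 gene, 19 with several, which were not named, and 1996 without a name) and from RefSeq, where 27 of 27 members matched. A probe set for the genes of the lid subunit Rpn5, which match together, was therefore left out. The study's gene descriptions were read in part (1999 rows). The study's CESR and stress lists were used for membership and for the CESR score. No coordinates, sequences or promoter motifs were analysed here.

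Groups were compared with limma 3.58.1 (R 4.3.3, statmod 1.5.0) on the 6 arrays of each comparison, and the difference between LatA responses on all 12. P-values were adjusted by Benjamini-Hochberg over all 4880 probe sets. The study's limits, an adjusted p below 0.05 and a fold change above 1.5, were used, and an adjusted p below 0.05 at any fold change was counted as well. Its methods do not name the test behind the p. The procedure was tested on simulated data. The Rpn13 pair was compared with exact permutation tests. Plots were made in matplotlib 3.10.9 under Python 3.11.15.

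The members and lists were chosen with earlier results of these data known. Members were named as follows: up to 6 called per comparison and, with fewer than 4 called, the 2 with the largest positive and the 2 with the largest negative difference, the catalytic β subunits, *rpn11*, and paralogs. Of other lists up to 4 called genes were to be named. The other genes named, among them *rpt5*, *rpn10* and *rpt6* in the wild-type response, were chosen after their values were seen. Alternatives were one fit of all arrays, the replicate number as a block, variances not shared between probe sets, weights per array, centring of each array on its median, a table without multi-gene probe sets, other limits, and leaving out each array.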

Additional observations from a re-analysis of the deposited data

How the results depend on the processing

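The direction of the median kept in every comparison under all alternatives. In wild type no gene was called at 1.5-fold. With array weights 1 was (*rpn1302*), with a lower fold limit 6, with no fold limit 18 and with one array left out 0 to 2. No share of all probe sets is given for the lower fold limit or for an adjusted p below 0.01. The same holds for 1.5-fold with array weights or with an array left out, so these counts have no background beside them. At any fold change 18 passed (17.5% of all probe sets higher), against 8 with each probe set's own variance (11.4%). The count was 26 with array weights (27.8%), 24 with all 12 arrays in one fit (21.8%) and 23 with arrays centred on their median (20.7%). With one array left out it was 2 to 24 (9.61% to 24.8%). At an adjusted p below 0.01 it was 1, and with the lower fold limit 6. In *set3Δ* the count with no fold limit was 1, against 9 with all 12 arrays in one fit and 8 with arrays centred on their median (10.9% and 9.02% of all probe sets higher, against 6.43%). It was 0 with each probe set's own variance (0.246% of all probe sets higher) and with any one array left out (0% to 5.39%). At an adjusted p below 0.01 and with the lower fold limit it was 0 as well. Between the strains with DMSO 0 passed, against 3 with all 12 arrays in one fit and 8 with array weights (3.83% and 4.32% of all probe sets higher, against 0%). With LatA 3 passed without a fold limit, against 0 with each probe set's own variance (3.26% of all probe sets higher, against 9.8%), 0 at an adjusted p below 0.01 and with the lower fold limit, and 0 to 4 with one array left out. For the difference between the LatA responses 3 genes passed with array weights, against 0. All 3 were below 0, where 9.47% of all probe sets passed downwards, against 0.041%. The median was -0.137 with array weights, against -0.0648. The estimation of array weights stopped before convergence in some fits. The causes of these shifts were not tested.

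In the 4 comparisons of groups single genes reversed as follows. In wild type *rpn1301* ran from -0.040 (without LatA replicate 2) to 0.14 with one array left out, and was also below 0 without DMSO replicate 1 or LatA replicate 3. Between the strains with LatA, *pre8* went to -0.015 with array weights. There, with one array left out, *pam1* ran from -0.10 to 0.0097, *rpn1301* from -0.022 to 0.16 and *rpn1302* from -0.0070 to 0.13. For the difference between the LatA responses, where 4 genes were above 0, from 1 to 9 were with one array left out and from 1 to 4 under the other alternatives.

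Whether replicate numbers paired the arrays was not settled by the values. The 18 correlations of deviations between same-numbered arrays ran from -0.497 to 0.562 with a median of 0.0206, and 7 of 18 were over 0.1, against 8 of 36 for other pairs. Deviations from a mean of 3 arrays are tied to each other, so this check cannot exclude pairing. With the replicate block, 13 genes passed in wild type at any fold change, 0 in *set3Δ*, 0 between the strains with DMSO, 2 with LatA and 0 for the difference between responses, where 15.9%, 0%, 0.041%, 9.94% and 0.041% of all probe sets were higher. Centred values hold no level, so what signal over background limits could not be examined, and the 3 arrays of each group set the size of change that could be resolved.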
